A study of Mus musculus with 9 samples.

Results

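The nuclear genes for the subunits of the mitochondrial respiratory chain and ATP synthase were followed in cultured mouse microglia, the resident macrophages of the brain. Members were chosen by symbol alone in the array's probe annotation: Nduf genes with a subunit letter and number, the 4 Sdh genes, Uqcr genes, Cyc1, Cox genes of the nuclear-encoded subunits, and Atp5 genes. The rule used no measured value and found 79 of the 19057 genes named on the array, on 119 probes. Of these, 69 genes were measured, meaning that a probe had a detection p-value under 0.05 on at least 3 of the 9 arrays. The 10 others were Atp5k, Cox4i2, Cox6b2, Cox7b2, Cox8b, Cox8c, Ndufb11, Ndufs1, Sdha and Uqcrfs1. Complex I had 31 measured of 33 genes, complex II 3 of 4, complex III 7 of 8, complex IV 12 of 17 and ATP synthase (complex V) 15 of 16. Despite its symbol, Ndufa4 was counted in complex IV, as was Cox7a2l. The last member, Ndufs5-ps, is a pseudogene and was measured too.

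The cells were primary microglia from the cortex of wild-type C57BL/6J pups, aged 1 to 5 days and with an intact cannabinoid receptor 2 (CB2+/+). There were 3 arrays of unstimulated cells, 3 of cells exposed for 16 h to bacterial lipopolysaccharide (LPS) together with IFNγ (interferon-gamma, 20 ng/ml), and 3 of cells kept for 48 h with IL-4 (interleukin-4) at 100 U/ml. The unit of the LPS dose is incomplete in the labels, and no culture time is listed for the unstimulated cells. Stimulus and duration therefore cannot be told apart in any of the comparisons. Nothing states that the replicates came from separate cultures, so p-values measure the spread between these samples, which may be technical. The precision is limited by the number of arrays.

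As background, complex I (NADH dehydrogenase) and complex II (succinate dehydrogenase) pass electrons to ubiquinone, complex III passes them on to cytochrome c, and complex IV (cytochrome c oxidase) hands them to oxygen. Complexes I, III and IV pump protons, and ATP synthase lets the protons back to make ATP. Macrophages given inflammatory stimuli are known for a shift towards glycolysis, and those given IL-4 for a reliance on oxidative metabolism, and the comparisons address how the subunit transcripts stand in either state. Subunits encoded by mitochondrial DNA do not fall under the rule.

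Of the LPS + IFNγ arrays, replicate 2 stood apart. Its mean intensity was 111.9 against 310.9 to 378.5 on the other arrays, with 6208 probes detected against 14475 to 16435. On that array 52 of the 69 measured members were detected, against 68 or 69 on each other array. Counts and medians of the members under LPS + IFNγ are therefore given with and without it, and values of single genes include it unless stated otherwise. Of the members whose LPS + IFNγ values are given below, Cox7a2l, Cox7a1, Cox7a2, Cox6a2, Sdhd and Atp5md were not detected on it. The 9 arrays lay on 2 slides. Slide 1 held replicates 1 and 2 of both stimulated groups, and slide 2 held their replicates 3 and all unstimulated arrays. All 8 microglia markers measured (of 10 listed) were detected on every unstimulated and IL-4 array, and 4 of them on every LPS + IFNγ array. Their summed linear level was 20610 to 24370 in unstimulated cells, 6019 to 6858 with LPS + IFNγ and 14120 to 18010 with IL-4. The markers did not all move alike. On the log2 scale Trem2 read 12.72 to 13.34 in unstimulated cells and 8.15 to 8.98 with LPS + IFNγ. Aif1 read 10.46 to 11.25 and 11.73 to 12.29 in the same groups. The astrocyte markers Gfap, Aqp4, Slc1a2, S100b and Sox9 were not measured. IL-4 replicate 1 had a summed level of the 3 measured astrocyte markers of 1714, against 67.2 to 184.6 on the other arrays. That sum came mostly from Gja1, at 10.68 there on the log2 scale and 4.38 to 7.07 elsewhere. Aldoc read 5.44 there and 4.23 to 5.32 elsewhere, and Slc1a3 read 5.07 there and 4.38 to 6.17 elsewhere. Of the endothelial, mural and fibroblast markers Pecam1 alone was measured, at 521.8, 117.5 and 282.7 on the IL-4 arrays against 36.8 to 78.1 in unstimulated cells and 51.0 to 172.6 with LPS + IFNγ (IL-4 against unstimulated 2.20 on the log2 scale, limma adjusted p = 0.805). The only neuronal marker measured, Rbfox3, lay at 37.5 to 56.9 with IL-4, 23.6 to 32.5 in unstimulated cells and 20.0 to 26.2 with LPS + IFNγ. The sum of the 5 measured oligodendrocyte-lineage markers was 925.4 to 1048 in unstimulated cells, 625.8 to 714 with IL-4 and 521.5, 1156 and 412.6 with LPS + IFNγ, while Mog and Olig2 were not measured. The part of these markers in the differences below was not tested. In such bulk samples, fewer cells of a type and less RNA per cell cannot be told apart.

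Under LPS + IFNγ few subunit genes passed the test. Against unstimulated cells 21 of the 69 members (30.4%) lay above 0 and 48 below, where 39.2% of all 9391 measured genes lay above 0. The median log2 difference was -0.23, and that of all genes -0.22. Past the threshold (limma's moderated test, adjusted p under 0.05 over all kept probes), 0 members were higher, where 6.12% of all genes were, and 2 members were lower, where 12.2% of all genes were. At an unadjusted p under 0.05, 3 members were higher and 10 lower. The share of all genes at that unadjusted threshold was not counted, so this count shows nothing particular to the members. Both members called lower are complex I genes, Ndufa13 and Ndufv3. Without replicate 2, 5 members were higher (14.2% of all genes) and 5 lower (20.1% of all genes), 34 lay above 0 and 35 below, and the median difference was 0.00, against -0.04 for all genes.

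**Figure D1:**
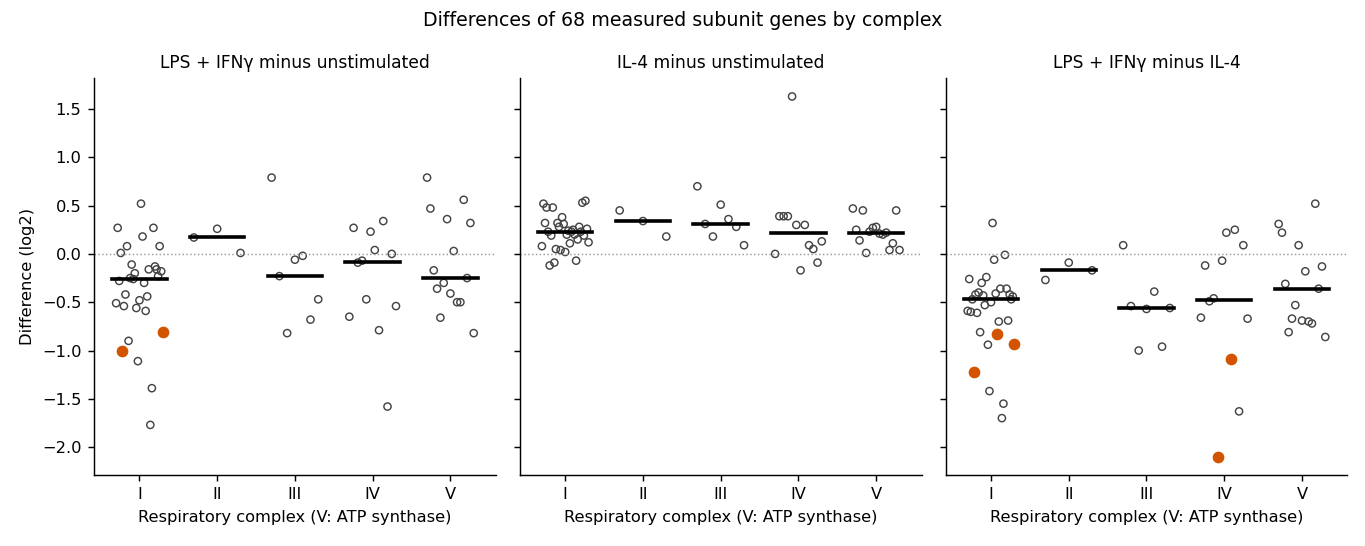
Log2 difference of each measured subunit gene (points) by complex in the 3 comparisons over all 9 arrays, with the median of each complex as a black line. Filled orange points passed the threshold (adjusted p under 0.05): 2 genes, both of complex I, were lower with LPS + IFNγ than in unstimulated cells, 0 genes passed with IL-4, and 5 genes of complexes I and IV were lower with LPS + IFNγ than with IL-4.

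Complex I has an arm that takes electrons from NADH, an arm that reduces quinone, and a proton-pumping membrane arm. Its 31 measured genes had a median difference of -0.26 with LPS + IFNγ (7 above 0 and 24 below), and of -0.07 without replicate 2 (12 above and 19 below). Ndufa13 (also known as Grim19), a small subunit of the complex that is also described as a regulator of cell death, read 12.62, 12.47 and 12.35 in unstimulated cells, on the log2 scale of the normalized intensities. With LPS + IFNγ it read 11.74, 10.94 and 11.77. All 3 stimulated arrays lay below all unstimulated ones, and Ndufa13 fell by 1.00 ± 0.26 on the log2 scale (standard error, 3 arrays in each group, limma adjusted p = 0.0341). Ndufv3, an accessory subunit of the NADH-oxidising tip, read 10.96, 10.79 and 10.92 in unstimulated cells and 10.26, 10.06 and 9.93 with LPS + IFNγ. The groups did not overlap, and the difference was -0.81 ± 0.19 (limma adjusted p = 0.0233). A further Ndufv3 probe gave -0.93 (limma adjusted p = 0.0301), while the dimmest, detected on 5 arrays, gave -0.18 (adjusted p = 0.660).

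Both calls were kept without replicate 2, at -0.73 for Ndufa13 (limma adjusted p = 0.00931) and -0.80 for Ndufv3 (adjusted p = 0.00746). Neither passed in the fit with a slide term (-0.87, adjusted p = 0.212, and -0.92, adjusted p = 0.0772), so that 0 members were called there. Each was also lost when any 1 unstimulated array was left out, with adjusted p of 0.0883 to 0.119 for Ndufa13 and 0.0583 to 0.0908 for Ndufv3. The call on Ndufa13 was lost too on leaving out IL-4 replicate 2 (adjusted p = 0.0614) or 3 (0.0635), since these arrays share the estimate of the spread, and that on Ndufv3 without LPS + IFNγ replicate 3 (adjusted p = 0.0660). On slide 2 alone, where 1 LPS + IFNγ array stands beside the unstimulated ones, Ndufa13 differed by -0.72 and Ndufv3 by -0.96.

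The genes named next passed without LPS + IFNγ replicate 2 and were chosen after their values were seen. Ndufa6, a subunit of the matrix side of complex I, read 10.81, 10.47 and 10.68 in unstimulated cells and 9.90, 9.33 and 10.04 with LPS + IFNγ. The difference was -0.90 over all arrays (limma adjusted p = 0.0505) and -0.68 without replicate 2 (adjusted p = 0.0313).

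Ndufs4, a subunit of the NADH arm whose loss causes a Leigh-like disease in mice, was read by 4 probes that did not give the same picture. On the brightest probe the unstimulated arrays read 8.87, 8.88 and 9.01, and the LPS + IFNγ arrays 9.93, 7.62 and 10.03. Replicate 2 alone lay below the unstimulated values, and the difference over all arrays was 0.27 (limma adjusted p = 0.772). The second probe and the next passed in the same comparison, at 1.01 (adjusted p = 0.0142) and 1.27 (adjusted p = 0.0167), with every LPS + IFNγ array above every unstimulated one. The fourth, which was not detected on 1 array, gave 0.37 (adjusted p = 0.659). Without replicate 2 all 4 probes passed, with differences of 1.06, 0.91, 1.08 and 1.04. The 2 arrays left were thus higher by about the same amount on every probe, and the probes parted on replicate 2.

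**Figure D2:**
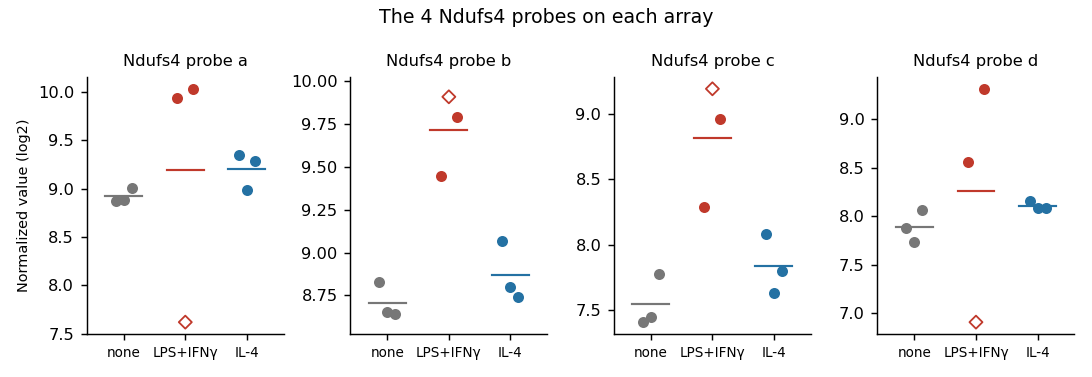
Normalized log2 values of the 4 kept Ndufs4 probes (panels a to d) on each array. Points are arrays of unstimulated cells (grey, labelled none), LPS + IFNγ (red, with the weak array, replicate 2, as an open diamond) and IL-4 (blue), and lines are group means. The weak array lies at 7.62 on the first probe and 6.91 on the fourth, below the unstimulated arrays, and at 9.91 and 9.19 on the other two, above them.

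Complex II is the only complex that also works in the citric acid cycle. Its catalytic flavoprotein Sdha was not measured. Sdhb, the iron-sulfur subunit, read 8.59, 8.48 and 8.82 in unstimulated cells and 9.18, 7.72 and 9.52 with LPS + IFNγ. The groups overlapped through replicate 2 (0.17 over all arrays, limma adjusted p = 0.811), and without it Sdhb was higher by 0.72 (adjusted p = 0.0274). That call rests on 1 probe. Another Sdhb probe of similar brightness, not detected on 1 array, gave -0.52 over all arrays (adjusted p = 0.637). Without replicate 2 it gave 0.44 and did not pass (adjusted p = 0.0881). The dimmest, detected on 3 arrays, gave 0.07, and 0.01 without replicate 2. Of the membrane anchors, Sdhc gave 0.26 (adjusted p = 0.535, and 0.01 without replicate 2) and Sdhd 0.01 (adjusted p = 0.996, and 0.83 without replicate 2, adjusted p = 0.0598).

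In complex III, Cyc1, the cytochrome c1 that passes electrons to cytochrome c, read 9.03, 9.14 and 9.20 in unstimulated cells. It read 10.14, 9.48 and 10.13 with LPS + IFNγ and 9.62, 9.91 and 9.94 with IL-4. Every array of either stimulus lay above every unstimulated array. With LPS + IFNγ the difference was 0.79 ± 0.24 (limma adjusted p = 0.0592), and without replicate 2 it passed, at 1.01 ± 0.17 (adjusted p = 0.00214). With a slide term Cyc1 did not pass over all arrays (0.96, adjusted p = 0.125), and it passed once replicate 2 was left out as well (1.06, adjusted p = 0.00796). The other 6 genes of the complex lay below 0 over all arrays, and 4 of them without replicate 2. Uqcr11, a small accessory subunit, gave -0.82 (adjusted p = 0.141), with all 3 LPS + IFNγ arrays below the unstimulated ones, and -0.45 without replicate 2 (adjusted p = 0.132).

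In complex IV the median difference was -0.08 over 12 genes (4 above 0 and 8 below), and 0 passed. Without replicate 2 the median turned to 0.16 (7 above and 5 below), and 2 genes were lower. Cox7a2l has been described as a factor that joins complexes III and IV into supercomplexes, a role not tested in these cells. It read 9.69, 9.75 and 10.06 in unstimulated cells and 8.83, 6.90 and 9.03 with LPS + IFNγ. Replicates 1 and 3 lay below every unstimulated array, and replicate 2 was not above background, so that its value has no rank. The difference was -1.58 ± 0.50 over all arrays (limma adjusted p = 0.0678), -1.43 with the undetected reading set to that array's lowest detected one (adjusted p = 0.0536), and -0.91 ± 0.18 without replicate 2 (adjusted p = 0.00506). Cox7a1, the isoform typical of heart and skeletal muscle, read 5.72, 5.66 and 5.95 against 5.24, 4.63 and 5.09 (-0.79, adjusted p = 0.0622, and -0.61 without replicate 2, adjusted p = 0.0425). It was not detected on LPS + IFNγ replicate 2, and its difference was 0.12 once undetected values were set to the lowest value detected on the same array. On that array this is 7.34, above every reading of Cox7a1, so the setting cannot judge its direction. Its partner Cox7a2, the liver-type isoform of other tissues, gave 0.34. Ndufa4 gave -0.54 (limma adjusted p = 0.143), and -0.42 without replicate 2 (adjusted p = 0.123).

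ATP synthase had 9 genes below 0 and 6 above with LPS + IFNγ (median -0.25), and 7 below and 8 above without replicate 2 (median 0.08). The 2 genes of the catalytic head whose arrays did not overlap were Atp5b and Atp5a1, its beta and alpha subunits. Atp5b read 13.04, 13.03 and 12.90 in unstimulated cells, 13.45, 13.36 and 13.57 with LPS + IFNγ and 13.25, 13.25 and 13.22 with IL-4. The 3 groups were ordered without overlap, unstimulated lowest and LPS + IFNγ highest. Against unstimulated cells the LPS + IFNγ difference was 0.47 ± 0.18 (limma adjusted p = 0.124), and 0.52 ± 0.15 without replicate 2 (adjusted p = 0.0307). Atp5a1 read 7.94, 8.12 and 8.31 in unstimulated cells and 8.36, 9.52 and 8.85 with LPS + IFNγ (0.79, adjusted p = 0.15, and 0.48 without replicate 2, adjusted p = 0.175), while its second probe gave -0.50 (adjusted p = 0.525). Atp5md, a small membrane subunit, was higher by 0.81 without replicate 2 (adjusted p = 0.0131), from 0.56 over all arrays (adjusted p = 0.213). Its signal was dim, at 5.07, 4.90 and 5.21 in unstimulated cells and 5.62, 5.12 and 6.13 with LPS + IFNγ. The lowest detected values were 4.74 to 4.92 on the arrays other than replicate 2, so the unstimulated readings lay near the floor.

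**Figure D3:**
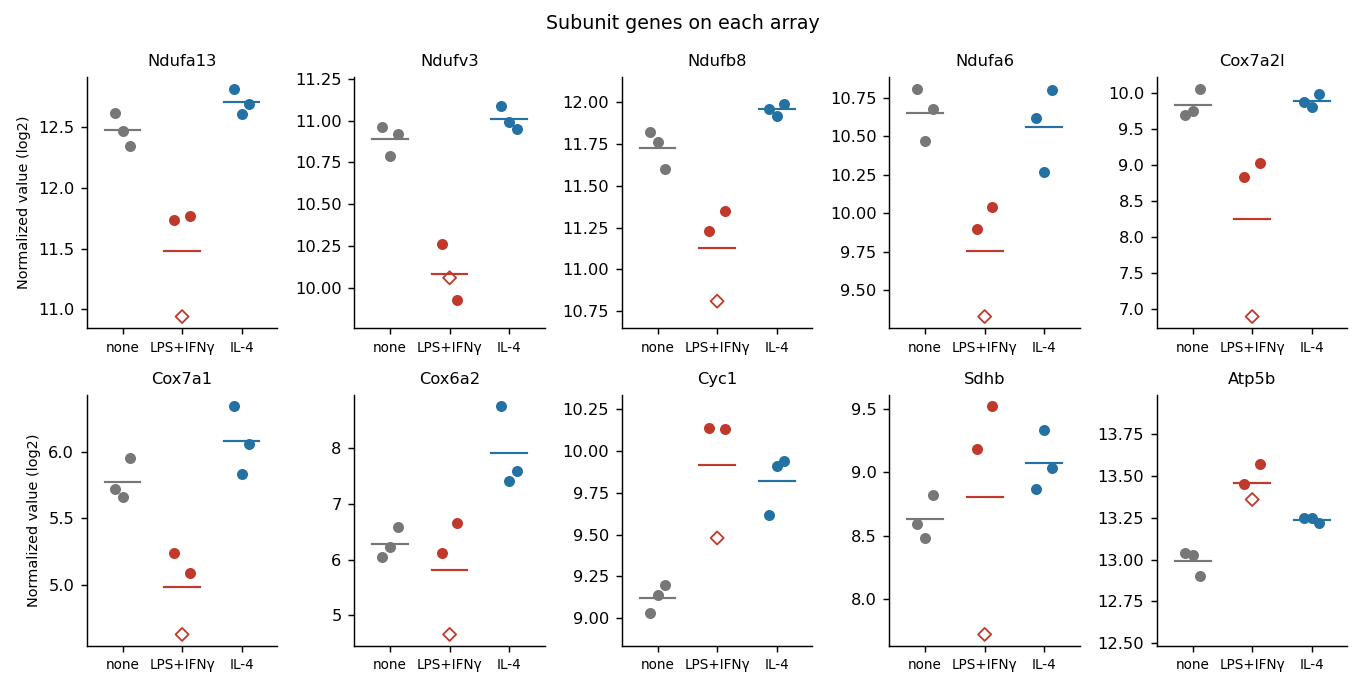
Normalized log2 values of 10 subunit genes on each array, each panel on its own axis, in unstimulated cells (grey, labelled none), with LPS + IFNγ (red, the weak array, replicate 2, as an open diamond) and with IL-4 (blue). Lines are group means. Ndufa13, Ndufv3, Ndufb8, Ndufa6, Cox7a2l and Cox7a1 lie lower on every LPS + IFNγ array, though Cox7a2l and Cox7a1 were not detected on the weak one, while Cyc1 and Atp5b lie higher on every array of either stimulus.

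With IL-4 the members lay slightly above unstimulated cells in every complex, and no single gene passed. Of the 69 measured members 64 lay above 0, while 51.7% of all genes did. The median difference was 0.23, and that of all genes 0.01. Several lists of related mitochondrial genes, given further below, had IL-4 medians in a similar range. Called by limma's adjusted p, 0 members were higher (0.0639% of all genes) and 0 lower (0% of all genes). At an unadjusted p under 0.05, 3 were higher (Cox6a2, Cyc1 and Ndufv1) and 0 lower, with the share of all genes not counted. The estimate of the spread in this test also includes the weak LPS + IFNγ array. Without that array the median standard error of the members was 0.17, against 0.27 with it. At the unadjusted threshold 15 members were then higher and 0 lower, again with the share of all genes not counted. Still 0 passed the adjusted threshold, where 0.341% of all genes were higher and 0.0426% lower. All 3 IL-4 arrays lay above all 3 unstimulated ones for 23 members, or 33.3%, against 10% of all genes, and below them for 1 member, Cox6c, against 8.23% of all genes. All 7 genes of complex III and all 15 of ATP synthase lay above 0. Those below 0 were Cox6c, Cox7b, Ndufa2, Ndufa6 and Ndufc2.

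The shift was small on each array. IL-4 replicates 1, 2 and 3 stood above the unstimulated mean for 54, 55 and 60 of the 69 members, against 49.5% to 52.2% of all genes. The mean over members was 0.24, 0.19 and 0.32 on these arrays and 0.01, -0.07 and 0.06 on the unstimulated ones. The IL-4 arrays were thus all above the unstimulated arrays. Over the 96 kept probes of the members, 85 lay above 0 and 10 below, where 50.4% of all kept probes lay above 0. On slide 2 alone, where 1 IL-4 array stands beside the unstimulated ones, the median was 0.33, with 60 members above 0 and 9 below, and with slide as a block it was 0.41 (0.09 for all genes).

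**Figure D4:**
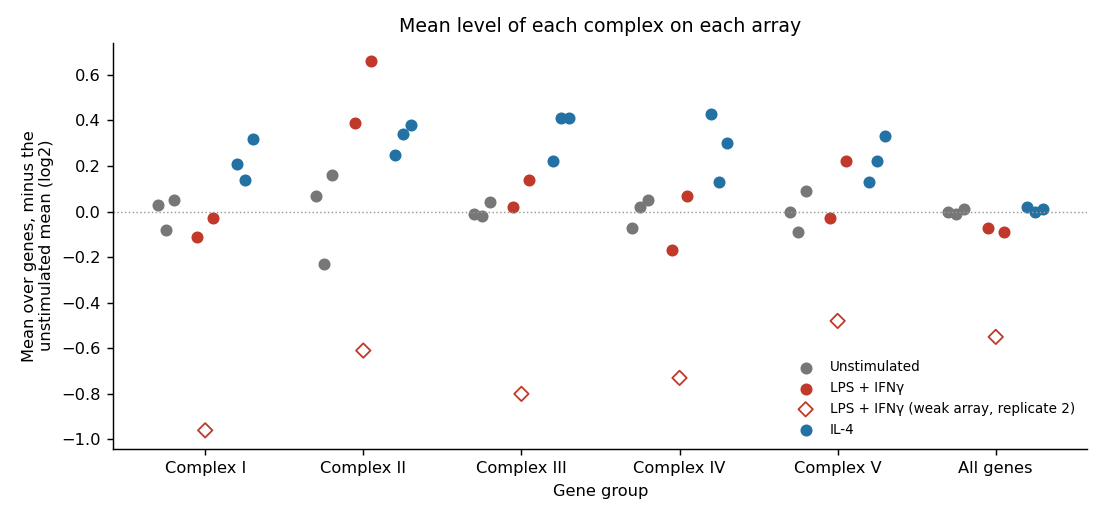
Mean over the measured genes of each complex, and over all genes measured, on each array, as the log2 difference from the mean of the unstimulated arrays. Points are arrays, and the open diamond is the weak LPS + IFNγ array. The IL-4 arrays lie at 0.13 to 0.43 in complexes I to V and at 0.00 to 0.02 over all genes, and the weak array lies lowest in every group.

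By complex, the IL-4 medians were 0.23 in complex I, 0.34 in complex II, 0.31 in complex III, 0.21 in complex IV and 0.22 in ATP synthase. In complex I, Ndufv1, the flavoprotein that oxidises NADH, read 9.93, 9.91 and 9.95 in unstimulated cells and 10.24, 10.68 and 10.52 with IL-4. The groups did not overlap (0.55 ± 0.21, limma, adjusted p = 1.0, and 0.225 without LPS + IFNγ replicate 2). Ndufs7, an iron-sulfur subunit next to the quinone site, gave 0.53. Cyc1 gave 0.70 ± 0.24 (limma, adjusted p = 0.990, and 0.118 without LPS + IFNγ replicate 2). The core protein gene Uqcrc2 gave 0.36 and Uqcrc1 gave 0.51. In complex II, Sdhb gave 0.45, Sdhc 0.34 and Sdhd 0.18. In ATP synthase, Atp5o, the stalk subunit that confers oligomycin sensitivity, gave 0.45, Atp5a1 0.47 and Atp5b 0.25, all with an adjusted p of 1.0.

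Cox6a2, the heart and muscle isoform of a complex IV subunit, had the largest IL-4 difference among the members. It read 6.04, 6.22 and 6.58 in unstimulated cells, 6.11, 4.66 and 6.66 with LPS + IFNγ and 8.74, 7.40 and 7.58 with IL-4. Every IL-4 array lay above every other array, replicate 1 the highest. The difference from unstimulated cells was 1.63 ± 0.54 (limma, adjusted p = 0.927, and 0.108 without LPS + IFNγ replicate 2). It was 1.21 without IL-4 replicate 1. That array also carried the higher Gja1 and Pecam1 signal, whose part in this difference was not tested. The liver-type partner Cox6a1 read 11.23, 11.34 and 11.05 in unstimulated cells and 11.64, 11.47 and 11.66 with IL-4 (0.39, adjusted p = 1.0). Of the other isoform pairs, Cox6b1 gave 0.30 with IL-4, Cox4i1 gave 0.00, and their partners Cox6b2 and Cox4i2 were not measured. Of the genes for the proton ring, Atp5g2 gave 0.23 and Atp5g3 gave 0.27.

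Directly compared, LPS + IFNγ lay below IL-4 for 60 of the 69 members and above it for 9, where it lay above for 37.6% of all genes. The median was -0.47, against -0.24 for all genes. Past the threshold 0 members were higher (5.69% of all genes) and 5 lower (11.6% of all genes). At an unadjusted p under 0.05, 20 were lower and 0 higher, again with the share of all genes not counted. Both comparisons above share arrays with this one, so it is no separate evidence. The median was -0.59 within slide 1 and -0.27 within slide 2. Without LPS + IFNγ replicate 2, 2 members were higher (13.1% of all genes), Atp5md and Ndufs4, and 12 lower (19.6% of all genes), 18 lay above 0 and 51 below, and the median was -0.27, against -0.07 for all genes. The Ndufs4 probes also disagreed here over all arrays. The brightest, which stands for the gene, gave -0.01 (limma adjusted p = 0.994), while another was higher (0.85, adjusted p = 0.0316). The remaining probes gave 0.98 (adjusted p = 0.0504) and 0.15 (adjusted p = 0.863).

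The 5 genes called lower were Ndufv3, Ndufa13 and Ndufb8 of complex I and Cox7a1 and Cox6a2 of complex IV. Ndufv3 differed by -0.93 ± 0.19 (limma adjusted p = 0.0136), with -0.88 within slide 1 and -1.02 within slide 2. Ndufa13 differed by -1.22 ± 0.26 (adjusted p = 0.0160), with IL-4 values of 12.82, 12.61 and 12.69. Both lay lower on every LPS + IFNγ array. Ndufb8, a membrane arm subunit often used as a protein marker of an assembled complex I, read 11.96, 11.92 and 11.99 with IL-4 and 11.23, 10.81 and 11.35 with LPS + IFNγ (-0.83 ± 0.21, adjusted p = 0.0335), while a dimmer probe of the gene gave 0.53 (adjusted p = 0.406). Cox7a1 differed by -1.09 ± 0.24 (adjusted p = 0.0187), with IL-4 values of 6.34, 5.83 and 6.06. Cox6a2 differed by -2.10 ± 0.54 (adjusted p = 0.0333), and by -1.52 without LPS + IFNγ replicate 2 (adjusted p = 0.0164).

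These calls were not equally firm. All 5 passed without LPS + IFNγ replicate 2, and 4 passed with slide as a block, the exception being Cox6a2 (adjusted p = 0.0501). Raising undetected values ended the calls on Cox7a1 (-0.19), Cox6a2 (-1.20) and Ndufb8 (adjusted p = 0.0518). That setting puts the weak array at 7.34, above every Cox7a1 reading and near the IL-4 readings of Cox6a2, so it cannot judge these 2 calls. Ndufb8 was detected on all 9 arrays, and its own values were unchanged. Without IL-4 replicate 1 the adjusted p was 0.101 for Cox6a2 (-1.68), 0.0585 for Cox7a1 and 0.0760 for Ndufb8, and the 2 other genes passed. Without IL-4 replicate 2 or 3 none of the 5 passed except Cox7a1 without replicate 2, and the adjusted p of the others reached at most 0.121. Cox6a2 and Ndufb8 were lost as well without any 1 unstimulated array or without LPS + IFNγ replicate 1 (adjusted p = 0.0546 to 0.0616). In the complexes without a call, the genes with the lowest adjusted p included Uqcr11 (-1.0, adjusted p = 0.0819) and Uqcr10 (-0.54, adjusted p = 0.117) of complex III, and Atp5j2 (-0.70, adjusted p = 0.0796) and Atp5h (-0.69, adjusted p = 0.102) of ATP synthase, each with LPS + IFNγ lower on every array. In complex II they were Sdhb (-0.27, adjusted p = 0.698) and Sdhc (-0.09, adjusted p = 0.843), whose arrays overlapped.

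Several genes that work around the complexes passed under LPS + IFNγ. The lists were fixed by function, and their counts are descriptions, to be read against the 6.12% of all genes called higher and 12.2% lower, or 14.2% and 20.1% without replicate 2. Of 24 measured assembly factors of complexes II to V, 3 were higher and 0 lower, with a median of 0.29, against -0.22 for all genes. Coa5, a factor needed to assemble complex IV, rose from 9.93, 10.16 and 10.09 to 11.55, 11.94 and 11.64 (1.65 ± 0.20, limma adjusted p = 0.00123). Cox17, the copper chaperone of complex IV, rose from 9.21, 9.32 and 9.34 to 11.03, 9.88 and 11.08 (1.37, adjusted p = 0.0299). Cox10, which makes the haem of complex IV, gave 0.68 (adjusted p = 0.0473). Cox10 passed neither with a slide term (0.76, adjusted p = 0.146) nor without any 1 of the other arrays except LPS + IFNγ replicate 2 (adjusted p = 0.0561 to 0.164). Cox17 passed with a slide term (adjusted p = 0.0496), and its adjusted p was 0.0543 to 0.0985 without LPS + IFNγ replicate 1 or 3, any 1 unstimulated array or IL-4 replicate 2.

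Sco1, a further copper protein of complex IV assembly chosen here after its values were seen, read 7.27, 7.21 and 7.17 in unstimulated cells and 9.32, 4.88 and 9.24 with LPS + IFNγ. It was not detected on replicate 2, and without that array it was higher by 2.06 (limma adjusted p = 7.32e-05). In all, 6 of the 24 genes were higher and 1 lower without replicate 2, where 14.2% and 20.1% of all genes were. Of 11 measured complex I assembly factors 0 passed in either direction over all arrays, and 1 was higher and 1 lower without replicate 2.

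Of 14 measured genes of cytochrome c and the quinone pathway, which hold the mobile carriers and side entries of the chain, 2 were higher and 0 lower, with a median of 0.03. Over all genes 6.12% were higher and 12.2% lower. Without replicate 2, 5 of the 14 were higher and 1 lower, against 14.2% and 20.1% of all genes. Cycs, cytochrome c itself, read 9.51, 9.12 and 9.67 in unstimulated cells, 10.95, 11.69 and 11.57 with LPS + IFNγ and 10.45, 9.61 and 9.73 with IL-4. Its LPS + IFNγ arrays lay above all others (1.97 ± 0.31 against unstimulated cells, limma adjusted p = 0.00413). Gpd2, the mitochondrial glycerol-3-phosphate dehydrogenase that feeds electrons from the cytosol to ubiquinone, rose from 7.31, 7.20 and 6.92 to 9.86, 9.5 and 8.90 (2.28 ± 0.29, adjusted p = 0.00142). Against IL-4 both were higher (1.47, adjusted p = 0.0155, and 1.73, adjusted p = 0.00500), and Etfa, which carries electrons from fatty acid oxidation, and Coq9, of ubiquinone synthesis, were lower (-0.69, adjusted p = 0.0348, and -1.33, adjusted p = 0.0495). With a slide term the last 2 failed (adjusted p = 0.0580 and 0.0685), and Coq9 was not detected on replicate 2. Against IL-4, Cycs failed on leaving out IL-4 replicate 2 (adjusted p = 0.0704) or 3 (0.0717), and Etfa and Coq9 passed on leaving out 1 array only without LPS + IFNγ replicate 2, or for Coq9 also without replicate 3.

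Of 6 measured carriers and uncoupling genes 1 was higher (6.12% of all genes) and 1 lower (12.2%) with LPS + IFNγ, as without replicate 2. Atpif1, the inhibitor that stops ATP synthase from running backwards, read 12.78, 12.76 and 12.60 in unstimulated cells, 11.05, 10.85 and 11.36 with LPS + IFNγ and 12.61, 12.74 and 12.62 with IL-4. All LPS + IFNγ arrays lay over 1 unit below all others, and Atpif1 fell by 1.63 ± 0.21 (limma adjusted p = 0.00152), or by 1.51 without replicate 2. Slc25a10, the dicarboxylate carrier that moves malate and succinate, rose from 6.96, 7.18 and 7.25 to 10.03, 8.41 and 10.04 (2.36, adjusted p = 0.00660). Against IL-4, Atpif1 was lower by -1.57 (adjusted p = 0.00187) and Slc25a10 higher by 1.99 (adjusted p = 0.0151, but 0.0566 on leaving out IL-4 replicate 2 and 0.0683 on leaving out replicate 3). Of 15 measured genes of mitochondrial import and the outer membrane, Timm17a, a channel subunit of the inner membrane translocase, gave 1.05 (adjusted p = 0.0262). It failed with a slide term (adjusted p = 0.168) and without LPS + IFNγ replicate 3 (0.0586) or any 1 unstimulated array (0.0715 to 0.109). It was the only one of that list to pass, and without replicate 2 there were 4, all higher (14.2% of all genes). With IL-4 0 genes of any of the 7 lists passed in either direction. The IL-4 median was 0.32 both for complex I assembly factors and for cytochrome c and the quinone pathway. It was 0.22 for carriers and uncoupling, 0.18 for import and 0.16 for assembly factors of complexes II to V. Nuclear regulators gave 0.02, and transcription and copying of mitochondrial DNA -0.06, against 0.01 for all genes. The small IL-4 shift was thus not particular to the subunits.

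**Figure D5:**
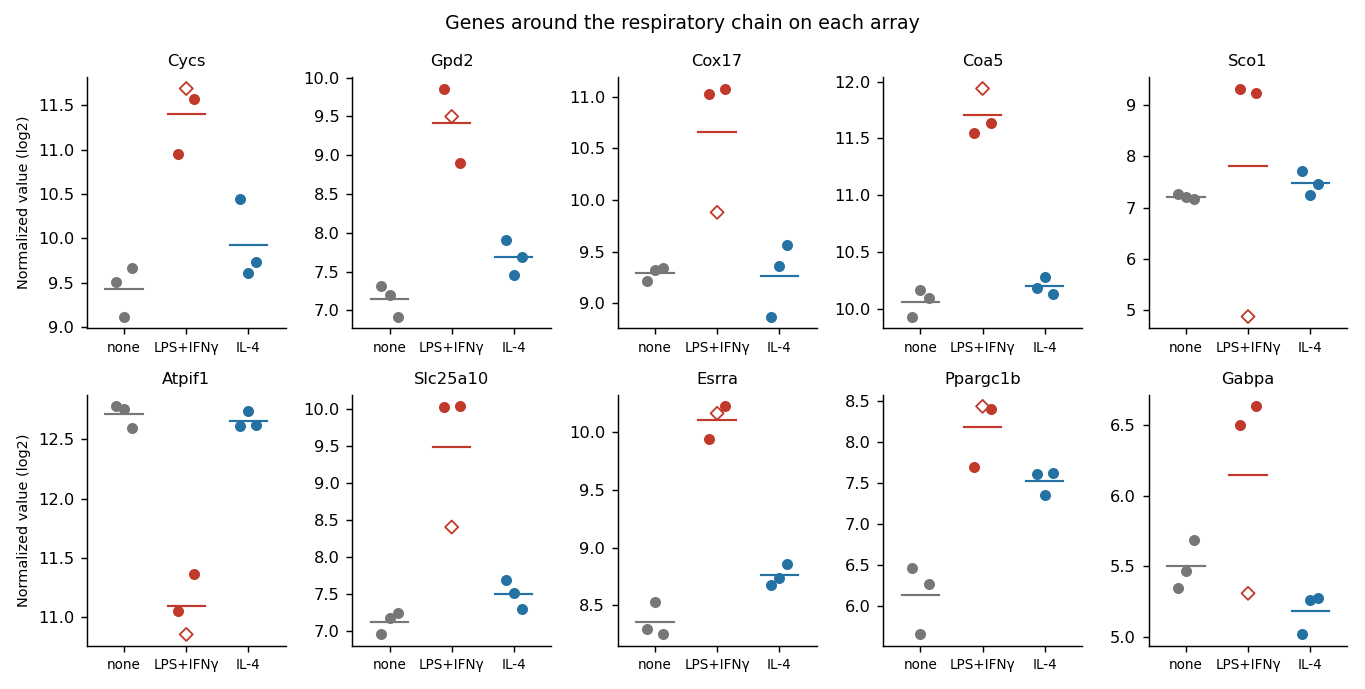
Normalized log2 values of 10 genes that work around the respiratory chain, on each array and each panel on its own axis, in unstimulated cells (grey, labelled none), with LPS + IFNγ (red, the weak array, replicate 2, as an open diamond) and with IL-4 (blue). Lines are group means. Cycs, Gpd2, Coa5, Esrra and Ppargc1b lie higher and Atpif1 lower on all 3 LPS + IFNγ arrays, while Sco1 and Gabpa lie higher on 2 of them and lowest or near the unstimulated level on the weak array.

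Among 6 measured nuclear regulators of mitochondrial genes, 2 were higher (6.12% of all genes) and 0 lower (12.2%) with LPS + IFNγ. Esrra, the oestrogen-related receptor that drives respiratory genes in muscle, read 8.30, 8.53 and 8.25 in unstimulated cells, 9.94, 10.16 and 10.22 with LPS + IFNγ and 8.68, 8.74 and 8.86 with IL-4 (1.75 ± 0.20 with LPS + IFNγ, limma adjusted p = 0.000857). Its coactivator Ppargc1b read 6.46, 5.65 and 6.27, then 7.70, 8.44 and 8.41, then 7.61, 7.35 and 7.63 in the same groups (2.06 ± 0.30 with LPS + IFNγ, adjusted p = 0.00290). For both genes every stimulated array lay above every unstimulated one. Without replicate 2, 5 of the 6 were higher (14.2% of all genes). Among them were Gabpa (1.06, limma adjusted p = 0.00215) and Gabpb1 (0.83, adjusted p = 0.00791), the 2 chains of GA-binding protein, neither detected on replicate 2. The exception was Nrf1, which read 8.32, 8.19 and 8.38 in unstimulated cells and 8.12, 9.0 and 7.89 with LPS + IFNγ. Yy1, also on this list, was not measured. Against IL-4, Esrra was higher by 1.35 (adjusted p = 0.00303). Of 11 measured genes for the transcription and copying of mitochondrial DNA 0 passed over all arrays, with a median of -0.79. Without replicate 2 the median was -0.29, and 1, the polymerase Polrmt, was lower (-0.52, adjusted p = 0.0483, where 20.1% of all genes were lower).

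GA-binding protein, NRF1 and YY1 are factors known to bind promoters of respiratory genes, so the promoters of the members were searched for their core letters. The windows run from 250 bases before to 50 after the annotated start (RefSeq, GRCm38.p6), and 64 of the 79 members had one. On either strand, GCATGCGC (NRF1) stood in 15.6% of these promoters and in 3.05% of the promoters of all 27025 genes. CCGGAAG (an ETS motif, bound by GA-binding protein) stood in 25% and 9.93%, and AANATGGCG (YY1) in 15.6% and 2.76%. Any of the 3 stood in 46.9% of the members, by complex in 14 of 30 genes of complex I, 3 of 5 of complex III, 2 of 12 of complex IV and 9 of 14 of ATP synthase, and in 14.4% of all genes. The 27025 genes include many that were not measured in these cells, and the share among measured genes alone was not counted. A match is a description of the letters and not a bound site. Of the members called higher without LPS + IFNγ replicate 2, Sdhb, Ndufs4, Atp5b and Atp5md held a motif, and Cyc1 had no window. Of those called lower, Ndufa6 held a motif, while Ndufa13, Ndufv3, Cox7a2l and Cox7a1 held none. Whether motif and direction go together was not tested. The following 4 promoters are examples picked from these genes, Sdhb and Ndufs4 higher and Ndufa6 and Ndufa13 lower. Each is written 5′ to 3′ on the gene's strand, with the motifs in capitals.
Sdhb (chr4:140961021-140961320, plus strand): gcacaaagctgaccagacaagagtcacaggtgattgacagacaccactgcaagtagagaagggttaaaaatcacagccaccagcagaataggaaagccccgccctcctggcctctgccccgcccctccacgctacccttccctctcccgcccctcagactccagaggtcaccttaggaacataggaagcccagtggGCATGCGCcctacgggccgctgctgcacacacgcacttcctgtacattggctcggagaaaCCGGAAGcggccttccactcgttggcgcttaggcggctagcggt
Ndufs4 (chr13:114388045-114388344, minus strand): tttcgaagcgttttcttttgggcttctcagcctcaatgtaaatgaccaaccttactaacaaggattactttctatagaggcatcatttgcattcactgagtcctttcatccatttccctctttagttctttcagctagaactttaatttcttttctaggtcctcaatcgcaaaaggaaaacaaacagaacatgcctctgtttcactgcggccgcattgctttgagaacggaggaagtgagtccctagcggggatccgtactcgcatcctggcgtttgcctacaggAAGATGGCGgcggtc
Ndufa6 (chr15:82354242-82354541, minus strand): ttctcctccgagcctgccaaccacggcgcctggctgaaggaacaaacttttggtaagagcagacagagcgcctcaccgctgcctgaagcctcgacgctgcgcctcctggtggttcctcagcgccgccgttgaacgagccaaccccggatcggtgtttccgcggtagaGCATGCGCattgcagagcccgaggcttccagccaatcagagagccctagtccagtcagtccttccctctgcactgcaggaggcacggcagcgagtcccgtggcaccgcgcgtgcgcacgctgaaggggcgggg
Ndufa13 (chr8:69901971-69902270, minus strand): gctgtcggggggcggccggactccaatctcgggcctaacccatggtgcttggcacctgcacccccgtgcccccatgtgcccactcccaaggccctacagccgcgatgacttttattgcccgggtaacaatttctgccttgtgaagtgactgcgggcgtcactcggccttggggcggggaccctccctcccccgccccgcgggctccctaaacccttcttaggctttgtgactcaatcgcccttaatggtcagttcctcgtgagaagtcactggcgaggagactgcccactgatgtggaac
In Sdhb the NRF1 letters begin 54 bases before the start and the ETS letters 6 bases after it, with no overlap. The YY1 letters of Ndufs4 begin 35 bases after the start, and the NRF1 letters of Ndufa6 begin 83 bases before it. Ndufa13 held none of the 3 motifs in this window.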

How the data were processed

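RNA of 9 microglia samples was measured on Illumina bead arrays. The authors deposited a linear intensity and a detection p-value for each of 45281 probes, not scaled between arrays, per the file headers and values, and a second table of log2 values. Those deposited log2 values were quantile-normalized signals with a shift per probe, equal and opposite between the 2 slides. The submitters' processing notes name Partek. Intensities were background-corrected (normexp, negative controls inferred from the detection p-values, offset 16), transformed to log2 and quantile-normalized with limma 3.58.1 in R 4.3.3. Probes with a detection p-value under 0.05 on at least 3 arrays were kept (16895), and each gene is its kept probe with the highest mean. One linear model of the 3 groups (lmFit, eBayes) gave differences and standard errors, with Benjamini-Hochberg adjustment over all kept probes. The procedure was tested on simulated data. Many respiratory genes have processed pseudogenes, and whether a probe also reads one was not tested.

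Equal replicate numbers paired the IL-4 and unstimulated samples by the correlation of their deviations from the group means (0.366, 0.427 and 0.300), but not LPS + IFNγ with unstimulated (-0.0411 to -0.00525) or IL-4 samples (-0.116 to 0.0685). The members and gene lists were chosen with earlier results of these data known. Named genes were those past the threshold, or in a complex with none the 2 with the lowest adjusted p, the Sdh genes, isoform pairs, members whose probes disagree, and up to 4 called genes of each list. Alternatives changed the background correction, the normalization, the starting table, the filter, array weights, the variance trend, undetected values, slide and replicate blocks, the probes counted and single arrays.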

Additional observations from a re-analysis of the deposited data

How the results depend on the processing

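Counts below are of the 69 measured members, higher then lower, against 0 and 2 for LPS + IFNγ against unstimulated cells and 0 and 5 for LPS + IFNγ against IL-4. In brackets are the shares of all genes called under the same setting. Against unstimulated cells they were 2 and 6 without background correction (7.24% and 13.6%), 4 and 6 in the deposited log2 table (7.57% and 14%), 6 and 7 with array quality weights (15.9% and 23.4%), 2 and 4 with a variance trend (6.45% and 12.7%), 0 and 0 with slide as a block (2.57% and 4.54%), 1 and 3 without the filter on dim probes (2.84% and 4.96%), and 2 and 3 when all kept probes were counted. Without LPS + IFNγ replicate 2 from the normalization on they were 5 and 5 (14% and 20%), and with slide as a block and without that array 3 and 3 (10.1% and 15.4%). Both of these settings were chosen after seeing the data. Against IL-4, 14 were lower without background correction (12.9%), 18 in the deposited table (15.4%), 12 with a variance trend (11.9%) and 2 with undetected values raised (6.07%), and array quality weights gave 2 higher and 23 lower (15.7% and 24.7%). Leaving out replicate 2 before normalization gave 2 higher and 7 lower (12.9% and 19.4%), against 2 and 12 when it was left out after it. Slide as a block without it gave 2 and 11 (11.6% and 17.6%), and counting all kept probes 1 and 6. With arrays centred on their medians in place of quantile normalization, 0 and 2 were lower in these comparisons (9.42% and 8.99%). That centring put the median of all genes at -1.01 and -1.07 and of the members at -1.41 and -1.84, with Cyc1, Atp5b, Sdhb and Ndufs4 below 0 against unstimulated cells (-0.63, -0.63, -1.0 and -0.83), as were Cox10 (-0.80), Cox17 (-0.02) and Timm17a (-0.33). For IL-4 against unstimulated cells 3 members were higher with array quality weights (1.39%), and the median of 0.23 became 0.33 with median centring, 0.36 in the deposited table, 0.41 with slide as a block and 0.33 within slide 2. Leaving out 1 array at a time gave 0 to 5 higher, 0 to 5 lower and a median of -0.32 to 0.00 for LPS + IFNγ against unstimulated cells. It gave 0 higher and 0 lower and a median of 0.20 to 0.27 for IL-4, and 0 to 2 higher, 0 to 12 lower and a median of -0.63 to -0.27 for LPS + IFNγ against IL-4. The brightest Ndufs4 probe changed sign against IL-4, from -0.01 to 0.76 with array quality weights and 0.78 without LPS + IFNγ replicate 2. Over the arrays left out in turn its difference was -0.43 to 0.78. Leaving out replicate 2 before normalization gave 0.79, and slide as a block without replicate 2 gave 0.76. With the replicate number as a block, for the paired IL-4 and unstimulated samples, 0 members passed, as without it, and for LPS + IFNγ 3 members were lower than in unstimulated cells and 4 lower than with IL-4, Ndufb8 being lost (adjusted p = 0.0665). The cause of these changes was not tested. Signal over background limits the weak array, where the lowest detected value was 7.34, against 4.74 to 4.92 on the others.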
